A study of Mus musculus with 3 samples.

Results

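The elastic fibre and lysyl oxidase genes are the elastin gene Eln, the fibrillin genes Fbn1 and Fbn2, the fibulin genes Fbln1, Fbln2, Fbln5 and Efemp2, and the lysyl oxidase genes Lox, Loxl1 and Loxl2. These 10 genes were chosen by name, each through its Ensembl identifier, from the 29267 genes listed for each of 3 mouse RNA-seq libraries. All 10 had counts and were tested. The group of mouse embryonic fibroblasts (MEFs) held 2 libraries, namely OG2 MEFs and ICR MEFs, named after their strains and taken at passages 3 to 5. The study describes its MEFs as primary cells of mid-gestation embryos that carry an Oct4-GFP transgene, the reporter of the OG2 strain. The labels do not say how many embryos were pooled. The embryonic stem cell (ESC) side held 1 library, of the R1 line at passage 30 in a state labelled naive. The labels give no treatment for any of the 3. The study used expression in MEFs and ESCs to choose the genes most raised or lowered during reprogramming.

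The summed expected counts were 5149312 for OG2 MEFs and 4590619 for ICR MEFs, but 1717838 for the library labelled ESC. That library went against its label in part. Of 10 pluripotency markers, Zfp42, Esrrb, Dppa5a and Utf1 had no count in it, while Pou5f1 had 71 counts, Nanog 51 and Sox2 32. In CPM, which are counts brought to a sum of 1000000 per library, the 10 pluripotency markers summed to 12.6 CPM for OG2 MEFs and 19.9 for ICR MEFs, against 120.5 for the library labelled ESC, and 6 epithelial markers summed to 7.81, 13.5 and 449.6. Klf2, a pluripotency marker, went the other way with 11.2, 17.6 and 1.43 CPM and made up most of both MEF sums. Most of the epithelial sum in the library with the ESC label came from Krt14 (296.9 CPM) and Krt8 (126.9 CPM). Krt18 was at 16.5 CPM there, Epcam at 7.89 CPM, Cdh1 at 1.43 CPM and Krt5 at 0. This library is therefore called the library labelled ESC. The fibroblast markers, which bear on every gene below, were at a summed 23880 CPM in OG2 MEFs, 23672 CPM in ICR MEFs and 3889 CPM in the library labelled ESC. None of the 10 fibroblast markers was at 0 there, and each stood between 2.19% (Pdgfra) and 48.9% (Twist1) of its mean CPM in MEFs. Whether fibroblasts were present in that library, and what part they had in the levels given below, was not tested.

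Elastic fibres give skin, arteries and lung their recoil. Fibrillins form microfibrils, on which elastin secreted as a soluble monomer is laid down with the help of fibulins, and lysyl oxidases oxidise lysine residues so that elastin and collagen chains become cross-linked. Fibroblasts and smooth muscle cells are the main cells that make these proteins.

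Positions of 8 of the genes, with the Ensembl identifiers of the tables, are those of the GENCODE M21 annotation on GRCm38, the assembly also called mm10. Eln (ENSMUSG00000029675) lies on chromosome 5 (134702593 to 134747323, minus strand), Fbn1 (ENSMUSG00000027204) on chromosome 2 (125300594 to 125507993, minus strand) and Fbln2 (ENSMUSG00000064080) on chromosome 6 (91212455 to 91272540, plus strand). Fbln1 (ENSMUSG00000006369) lies on chromosome 15 (85205949 to 85286535, plus strand), Fbln5 (ENSMUSG00000021186) on chromosome 12 (101746565 to 101819055, minus strand) and Efemp2 (ENSMUSG00000024909) on chromosome 19 (5473954 to 5482517, plus strand). Loxl1 (ENSMUSG00000032334) lies on chromosome 9 (58287738 to 58313186, minus strand) and Loxl2 (ENSMUSG00000034205) on chromosome 14 (69609068 to 69695834, plus strand). Fbn2 has the identifier ENSMUSG00000024598 and Lox ENSMUSG00000024529. All 10 are protein-coding. Exons of 6 of them overlap a gene on the other strand, most of all those of Fbn1, which share 2442 bases with Gm9913, a gene with expected counts of 53.6, 81.2 and 0. Efemp2 shares 173 exon bases with Mus81, a DNA repair endonuclease gene with 109, 108 and 38 counts. The counts of both overlapping genes are not scaled for the lower depth of the library labelled ESC, so they give no direction. Whether the counting used strand is not given in the sources used here, so reads in the shared bases may belong to either gene.

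The fibulin genes did not change alike, and the bases upstream of 3 of them with different outcomes are shown here. In the library labelled ESC, Efemp2 was higher in CPM but lower in TPM, Fbln1 did not pass the test and Fbln5 fell far. The promoter table of RefSeq (GRCm38.p6) held 5 of the 10 genes, and these 3 had a start whose 250 upstream bases touch no annotated exon. Capitals mark the GC box (GGGCGG, or CCGCCC on the other strand), a short motif bound by Sp1-type factors.
Efemp2, chr19:5473696-5473945, plus strand: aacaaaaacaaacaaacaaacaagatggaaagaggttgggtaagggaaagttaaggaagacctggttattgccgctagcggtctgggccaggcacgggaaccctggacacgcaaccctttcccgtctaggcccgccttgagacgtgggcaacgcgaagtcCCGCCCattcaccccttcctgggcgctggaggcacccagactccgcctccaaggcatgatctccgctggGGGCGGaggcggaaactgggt
Fbln1, chr15:85205699-85205948, plus strand: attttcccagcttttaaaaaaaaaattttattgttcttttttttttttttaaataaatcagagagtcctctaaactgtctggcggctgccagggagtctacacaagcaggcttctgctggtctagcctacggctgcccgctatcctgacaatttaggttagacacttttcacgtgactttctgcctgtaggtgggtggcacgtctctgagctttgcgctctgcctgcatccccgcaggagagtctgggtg
Fbln5, chr12:101819120-101819369, minus strand: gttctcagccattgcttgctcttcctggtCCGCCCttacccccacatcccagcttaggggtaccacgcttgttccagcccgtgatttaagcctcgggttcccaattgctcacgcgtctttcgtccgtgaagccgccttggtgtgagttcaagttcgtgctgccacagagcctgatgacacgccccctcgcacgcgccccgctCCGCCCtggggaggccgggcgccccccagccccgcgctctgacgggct
The Efemp2 window held 2 GC boxes and a GC content of 59.2%. The Fbln5 window also held 2 GC boxes, with a GC content of 65.2% and 1 CCAAT box. The Fbln1 window held no GC box and had a GC content of 46.4%. Over all 32851 windows of the same length, 32.7% held a GC box on either strand, 16.7% held at least 2, 33.8% held a CCAAT box, and the median GC content was 52.4%. TATAAA, the AP-1 motif TGANTCA and the CArG box were also searched on both strands, and none of the 3 windows held these letters. Over all windows the shares were 12.4%, 6.75% and 1.47%. The motifs did not overlap each other in the windows shown. Other starts of the same genes, whose windows touch exons and are not shown, differed. The other Fbln1 window, which overlaps the one shown, held 1 GC box (GC content 62.4%), and the other Fbln5 window held 0 (49.6%). Both other Efemp2 windows held 5 (75.6% and 78.8%). These Efemp2 windows share most of their bases, so they are not separate observations, and some of their GC boxes overlap within GGGCGGGCGG.

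MEFs expressed all 10 genes, at levels that spanned more than an order of magnitude. Levels between genes were compared as TPM, the deposited RSEM value that is divided by gene length and brought to the same sum in every library. Fbln2, a large fibulin of vessel walls and basement membranes, was highest with 1652 TPM in OG2 MEFs and 1826 TPM in ICR MEFs (mean 1739 ± 123, SD, n = 2). This placed it at rank 71 and rank 61 among the genes with a TPM above 0. Lox, the founding lysyl oxidase, followed with 1199 and 1424 TPM (1311 ± 159). Both genes stood apart from the others, since the mean of Lox was 3.39 times that of Efemp2, the third gene in the order. A middle group held Efemp2 (387 ± 38.9 TPM), Loxl1 (334 ± 53.6), Fbln5 (328 ± 20.7), Fbn1 (308 ± 53.5) and Loxl2 (292 ± 1.65). Efemp2 was at rank 3 in both MEF samples, though its range overlapped that of Loxl1, and the order of the other four differed between the MEF samples. After a step of 4.24-fold, Eln (68.8 ± 14.9 TPM), Fbn2 (67.0 ± 9.33) and Fbln1 (61.2 ± 19.7) were lowest, and these also overlapped. The scaffold gene Fbn1 thus exceeded its core partner Eln per length, with a ratio of 4.64 in OG2 MEFs and 4.36 in ICR MEFs.

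**Figure D1:**
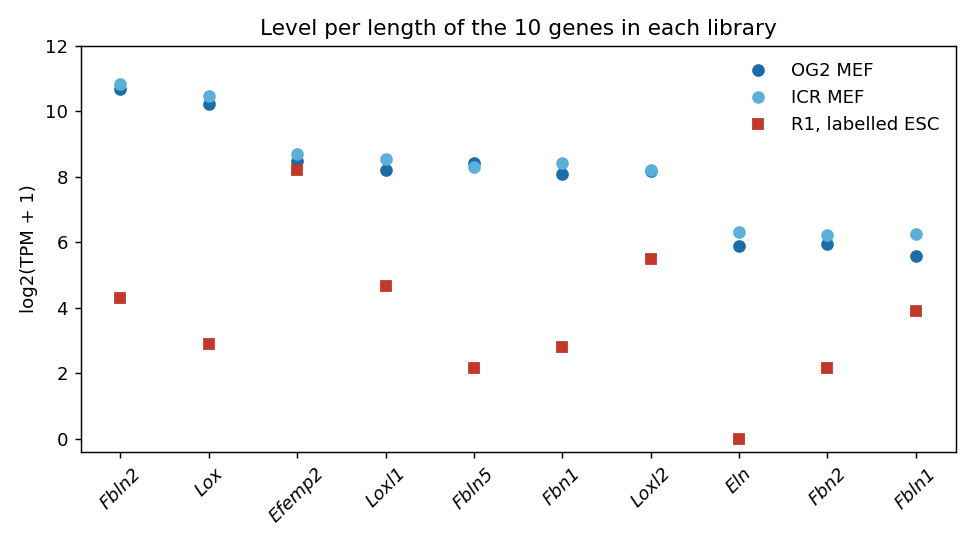
Level per length of the 10 genes in each library, as log2(TPM + 1) on the vertical axis, with genes on the horizontal axis in the order of their mean in MEFs; circles are the 2 MEF samples and squares the library labelled ESC. Efemp2 is the gene whose square lies closest to its circles (359.9 and 415 TPM against 294 TPM), and the square of Eln lies at 0.

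In the library labelled ESC the order was another. Efemp2, at rank 3 in MEFs, came first with 294 TPM and rank 411 among all genes, with ranks of 413 in OG2 MEFs and 345 in ICR MEFs. Loxl2 (44.3 TPM), Loxl1 (24.6 TPM), Fbln2 (18.6 TPM) and Fbln1 (14.0 TPM) came next. Lox (6.46 TPM), Fbn1 (5.97 TPM), Fbln5 (3.48 TPM) and Fbn2 (3.44 TPM) were far lower, and Eln was at 0. The summed level of the 10 genes was 4577 TPM in OG2 MEFs, 5217 TPM in ICR MEFs and 415 TPM in the library labelled ESC. They took 1.01%, 1.11% and 0.106% of all counts.

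For the comparison within each gene, CPM were scaled between libraries with TMM factors. The difference was the log2(CPM + 1) value of the library labelled ESC less the mean over both MEFs. A gene was called where it lay 1 log2 unit or more below, or above, each of the MEF samples. By this rule 8 of the 10 genes were lower and 0 were higher, while 25.9% of the 17810 genes with a count were lower and 21.9% were higher. With TPM in place of CPM the split over all genes was 7692 lower and 1624 higher, and 9 of the 10 genes were lower. In CPM the median difference was −3.39 over the 10 genes and −0.13 over all genes. By edgeR's quasi-likelihood test at an adjusted p under 0.05, which takes its spread from the MEF pair alone, 8 were lower and 1 was higher, against 36.0% and 31.4% of the 12663 genes tested. In bulk RNA, fewer cells that express a gene and less of its RNA per cell cannot be told apart. The MEF samples differ in strain, and nothing in the labels says that they are separate cultures of 1 kind, so the p-values measure only the spread between these 2 samples.

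Eln, which encodes tropoelastin, had 394 counts in OG2 MEFs and 460 counts in ICR MEFs, against 0 in the library labelled ESC. Its CPM was 69.9, 89.0 and 0. A count of 0 at this depth allows a level of up to 3 counts, which is 2.15 CPM after scaling (counting error only). Set against this floor, Eln was at least 36.9-fold lower than the MEF mean. The edgeR adjusted p was 6.83e-06. Its log2 difference is set by the pseudocount, since the ESC side was at 0, and was −6.32 with a pseudocount of 1, −9.63 with 0.1 and −4.07 with 5.

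Both fibrillins fell. Fbn1, the main fibrillin of microfibrils and the gene altered in Marfan syndrome, was at 1259 CPM in OG2 MEFs, 1543 CPM in ICR MEFs and 81.8 CPM in the library labelled ESC. Both MEF samples lay far above, and the level left was 5.84% of the MEF mean, with a log2 difference of −4.08 (MEF SD 0.21) and an adjusted p of 2.09e-06. Fbn2, a fibrillin made mostly before birth, was at 311, 352 and 50.2 CPM, which left 15.1% of the MEF mean. Its log2 difference was −2.70 (MEF SD 0.13, adjusted p 1.07e-05). The 95% counting intervals of the log2 ratio to the pooled MEF samples, −4.37 to −3.83 for Fbn1 and −3.08 to −2.38 for Fbn2, did not overlap. The ratio of Fbn1 to Fbn2 per length was 4.48 for OG2 MEFs and 4.70 for ICR MEFs, against 1.74 in the library labelled ESC. The last ratio rests on 114 counts of Fbn1 and 70 of Fbn2.

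Among the fibulins, 2 fell far, and the other two did not pass the rule. Fbln5, which binds elastin and tethers it to microfibrils and cells, was at 968 CPM in OG2 MEFs, 824 CPM in ICR MEFs and 28.0 CPM in the library labelled ESC. It was 32.0-fold lower than the MEF mean, with a log2 difference of −4.95 (MEF SD 0.16) and an adjusted p of 8.95e-07. Fbln2 was at 2695, 2824 and 118 CPM, a 23.3-fold lower level, with a log2 difference of −4.53 (MEF SD 0.047, adjusted p 8.73e-07). Which of these genes fell further depended on the scale, since with TPM the difference was −6.47 for Fbln2 and −6.20 for Fbln5, and with GC-content correction −5.43 and −4.50. The mean transcript length that RSEM gave for Fbln2 was 3445 and 3498 bases in the MEF samples and 4644 bases in the library labelled ESC, so the estimated mix of its 8 annotated transcripts also differed. On the ESC side that estimate rests on 165 counts.

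Fbln1, a fibulin of basement membranes and elastic fibres, was among the 3 lowest of the 10 genes in MEFs and differed most between the MEF samples. It was at 56.3 CPM in OG2 MEFs, 84.9 CPM in ICR MEFs and 43.0 CPM in the library labelled ESC, from 317, 439 and 60 counts. The library labelled ESC was the lowest, with a difference of −0.38 from OG2 MEFs and of −0.96 from ICR MEFs. The mean difference of −0.67 (MEF SD 0.41) did not pass the edgeR test (adjusted p 0.132). It lay at −2.01 with TPM in place of CPM and at −1.37 after a GC-content correction, and then counted as lower.

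Efemp2 (fibulin-4), which brings the lysyl oxidase precursor to tropoelastin, went against the other fibulins. It was at 242 CPM in OG2 MEFs, 261 CPM in ICR MEFs and 515 CPM in the library labelled ESC, from 1365, 1349 and 718 counts. The library labelled ESC was 1.08 log2 units above OG2 MEFs and 0.98 above ICR MEFs, so it missed the rule against ICR MEFs by little, while the edgeR test called it higher (adjusted p 2.03e-04). This direction held with TMM, median-of-ratios and quantile scaling (1.03, 1.23 and 0.50) and after the GC-content correction (0.29), but turned with TPM (−0.39) and after a correction for GC content and length (−0.27). With TPM the median difference of all genes with at least 10 counts moved by −1.11, to −1.54. Its length in RSEM was 1526, 1521 and 1382 bases, and it was the shortest of the 10 genes.

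**Figure D2:**
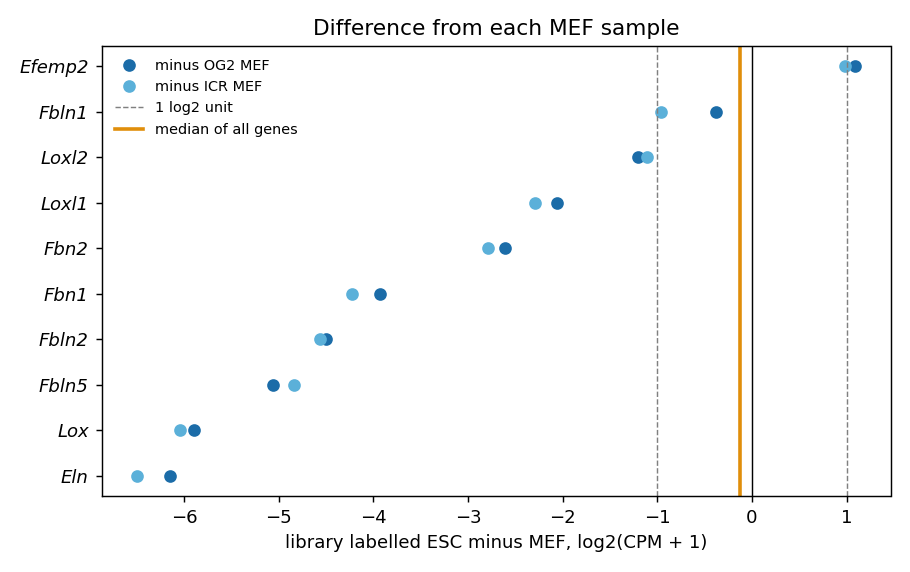
Difference of the library labelled ESC from each MEF sample on the log2(CPM + 1) scale (horizontal axis) for the 10 genes (vertical axis); dark points are against OG2 MEFs, light points against ICR MEFs, dashed lines mark 1 log2 unit and the orange line the median of all genes. The 8 genes called lower lie left of −1 with both points, Fbln1 lies between −0.96 and −0.38, and Efemp2 at 0.98 and 1.08, a direction that turns with TPM and with a correction for GC content and length.

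All 3 lysyl oxidases fell, Lox most and Loxl2 least. The 95% counting intervals of their log2 ratios to the pooled MEF samples did not overlap, with −6.41 to −5.62 for Lox, −2.42 to −1.95 for Loxl1 and −1.30 to −1.03 for Loxl2. Lox was at 2401 CPM in OG2 MEFs, 2661 CPM in ICR MEFs and 39.4 CPM in the library labelled ESC, from 13528, 13752 and 55 counts. The level left was 1.56% of the MEF mean. The log2 difference was −5.97 (MEF SD 0.10), rank 28 of all genes counted from the largest fall, with an adjusted p of 4.15e-07. Loxl1, which acts on elastin and binds Fbln5, was at 467, 547 and 111 CPM, 4.56-fold lower in the library labelled ESC (log2 difference −2.17, MEF SD 0.16, adjusted p 3.65e-05). Loxl2, which cross-links basement membrane collagen IV, was at 746, 701 and 323 CPM. It kept 44.7% of its MEF level and differed by −1.20 from OG2 MEFs and by −1.11 from ICR MEFs, just past the rule (adjusted p 0.00136). With median-of-ratios scaling its mean difference was −0.96, and with the correction for GC content and length −0.63, so that it no longer counted as lower. It was larger with GC-content correction alone (−1.43), with full-quantile scaling (−1.68) and with TPM (−2.69).

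The unequal steps changed which gene supplied the largest part of the lysyl oxidase sum and of the sum of the 4 fibulin genes. Loxl3 and Loxl4, the remaining lysyl oxidases, were added to the 3 members for the lysyl oxidase sum. Lysyl oxidase RNA summed to 1954 TPM in OG2 MEFs, 2297 TPM in ICR MEFs and 96.6 TPM in the library labelled ESC. Lox made up 61.4% and 62.0% of it in MEFs but 6.68% in the library labelled ESC. There Loxl2 made up 45.8%, Loxl1 25.5% and Loxl3 20.4%, against 14.9%, 15.1% and 5.59% in OG2 MEFs. The fibulin sum covered only Fbln1, Fbln2, Fbln5 and Efemp2, not the whole family. It left out the fibulin Efemp1, at 416 TPM in OG2 MEFs, 329 TPM in ICR MEFs and 71.7 TPM in the library labelled ESC. With Efemp1 added, the fibulin shares given here would be smaller. The 4 fibulin genes summed to 2402, 2629 and 330.5 TPM. Fbln2 made up 68.8% and 69.4% of this sum in MEFs and 5.63% in the library labelled ESC, where Efemp2 made up 89.1% against 15.0% and 15.8% in MEFs. These shares are within a library and do not depend on the scaling between libraries, but they cover 1 library on the ESC side and were not tested.

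**Figure D3:**
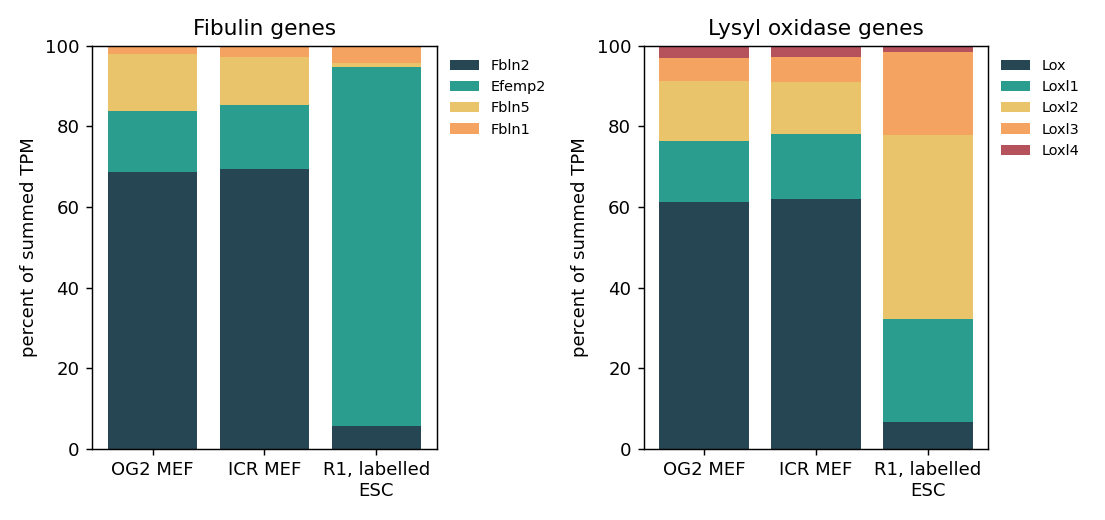
Share of each gene in the summed TPM of the 4 fibulin genes (left) and of the 5 lysyl oxidase genes (right), in percent on the vertical axis, with 1 bar per library. Fbln2 and Lox fill most of the MEF bars (68.8% and 61.4% in OG2 MEFs), while Efemp2 (89.1%) and Loxl2 (45.8%) are the broadest bands in the library labelled ESC. The fibulin bars leave out Efemp1.

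Between the 2 MEF samples none of the 10 genes was at least 1 log2 unit apart on the log2(CPM + 1) scale. Only 2.76% of all genes were, so a count of 0 among 10 sets these genes apart in no way. In 8 of the 10 genes OG2 MEFs were lower than ICR MEFs, with a median difference of −0.16. The share of all genes that were lower was not counted, so no lean of these genes is read from this. The median over all genes was 0, but it includes genes with few counts in MEFs. Fbln1 differed most, with a log2 ratio of OG2 to ICR of −0.59 (95% interval of the counts −0.81 to −0.38), followed by Eln with −0.35 (−0.55 to −0.15) and Fbn1 with −0.29 (−0.34 to −0.25). Fbln5 went the other way at 0.23 (0.17 to 0.29), and Loxl2 was at 0.091 (0.026 to 0.16) in CPM but at −0.011 as a difference of log2(TPM + 1). The interval of Efemp2 (−0.22 to 0.0023) included 0. Lox and Fbln2, the genes with the most counts, differed by −0.15 and −0.067. These intervals cover counting error only, and with 1 library of each strain no test of strain was possible.

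**Figure D4:**
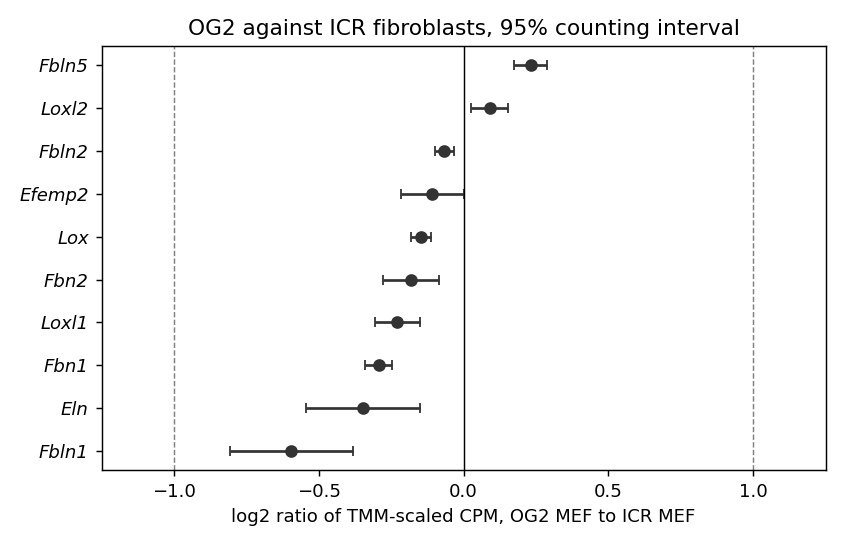
Log2 ratio of TMM-scaled CPM in OG2 MEFs to that in ICR MEFs (horizontal axis) for the 10 genes (vertical axis), with bars for the 95% interval from counting error and dashed lines at 1 log2 unit. Points run from −0.59 (Fbln1) to 0.23 (Fbln5), and Loxl2 at 0.091 lies just below 0 when TPM is used.

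Genes that work with elastic fibres were counted in lists, by the same rule. Of 9 other microfibril and fibulin glycoproteins, 8 were lower and 0 higher, with a median of −1.89, and edgeR called 7 of the 8 tested lower. Efemp1 (fibulin-3) was at 352 and 259 CPM in MEFs and 90.4 CPM in the library labelled ESC (−1.73, adjusted p 3.66e-04). Emilin1, a glycoprotein between elastin and microfibrils, was at 261, 243 and 67.4 CPM (−1.89, adjusted p 5.84e-05), and Emilin2 at 51.1, 64.2 and 7.89 CPM (−2.71, adjusted p 1.09e-04). Mfap4, a microfibril-associated glycoprotein, had 245 and 359 counts in MEFs and, like Eln, 0 in the library labelled ESC.

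Of the 4 latent TGF-beta binding proteins, a family of matrix proteins related to fibrillins, 3 were lower by both criteria. Ltbp1 was at 526, 267 and 119.8 CPM (−1.64, adjusted p 0.00524), with 0.97 log2 units between the MEF samples, a wider gap than for any of the 10 elastic fibre genes. Ltbp2 was at 242, 364 and 40.2 CPM (−2.86, adjusted p 5.87e-05) and Ltbp3 at 159.6, 159.8 and 55.9 CPM (−1.50, adjusted p 2.15e-04). Ltbp4 did not pass in CPM (−0.68, adjusted p 0.111). With 18.5, 13.1 and 2.87 TPM, however, it lay more than 1 log2 unit below both MEF samples on the log2(TPM + 1) scale.

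Of 6 lysyl oxidase relatives and genes of lysyl oxidase maturation, 5 were lower by the fold rule and all 6 by edgeR. Fn1, whose fibronectin matrix holds lysyl oxidase during its activation, was at 7787, 9095 and 284 CPM (−4.88, adjusted p 9.67e-07), and Postn, which scaffolds that activation, at 355, 471 and 35.9 CPM (−3.48, adjusted p 8.49e-06). Bmp1, the protease that cleaves the Lox precursor, was at 164, 195 and 43.7 CPM (−2.01), from 924, 1010 and 61 counts. Loxl3 was at 198, 235 and 109.7 CPM (−0.97, adjusted p 0.00545) and missed the fold rule in CPM. With 109.2, 145.8 and 19.7 TPM, it lay more than 1 log2 unit below both MEF samples on the log2(TPM + 1) scale. Atp7a, the copper transporter that loads lysyl oxidases, had 171, 137 and 0 counts.

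The fibrillar collagens, the other substrate of lysyl oxidases, were lower in 5 of 5. Col1a1 was at 9474, 9428 and 828 CPM (−3.51, adjusted p 3.14e-06), Col1a2 at 7635, 7885 and 579 CPM (−3.74, adjusted p 2.21e-06) and Col5a2 at 2465, 3250 and 55.9 CPM (−5.64, adjusted p 9.21e-07). What was left of them, from 1.91% (Col3a1) to 8.76% (Col1a1) of the MEF mean, can be set beside 1.56% for Lox and 44.7% for Loxl2. Col1a1 and Col1a2 are also among the fibroblast markers.

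Of 6 enzymes that degrade elastin, 5 were lower and 1 was higher. The lysosomal protease Ctsl was at 507, 576 and 66.7 CPM (−3.00, adjusted p 5.91e-06), the gelatinase Mmp2 at 261, 326 and 65.3 CPM (−2.14, adjusted p 6.28e-05) and Ctsk at 45.8, 46.6 and 5.74 CPM (−2.81, adjusted p 5.92e-05). Mmp12, the macrophage elastase, went the other way, from 1 and 5 counts in MEFs to 15 in the library labelled ESC (2.95, adjusted p 0.00284). Summed CPM of 4 macrophage markers was 24.5 and 11.0 in MEFs and 14.3 in the library labelled ESC, with Ptprc and Adgre1 at 0 there.

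In the remaining lists most genes did not pass the rule in CPM. Of 7 fibrillin-binding ADAMTS and ADAMTS-like genes, 1 was lower by the fold rule and 6 were neither, and edgeR called 2 of the 5 tested lower and 1 higher. Adamtsl5 was at 42.2, 51.3 and 83.2 CPM (0.82, adjusted p 0.00156), Adamts10 at 29.3, 30.0 and 14.3 CPM (48.4% of the MEF mean, adjusted p 0.0249) and Adamtsl3 at 13.1, 40.4 and 0.717 CPM, the last from 1 count (−3.82, adjusted p 0.00916). Adamts17, with 3, 0 and 1 counts, was too low to place. None of the 3 genes of the elastin receptor complex passed the fold rule in CPM. Ctsa was at 316, 337 and 365 CPM (0.16, adjusted p 0.116), Neu1 at 33.5, 36.8 and 25.8 CPM (−0.43, adjusted p 0.338), and Glb1 at 41.0, 33.5 and 57.4 CPM (0.62), which edgeR called higher (adjusted p 0.00945). In TPM both genes that edgeR called higher were lower on the ESC side, Adamtsl5 with 54.5, 56.7 and 42.9 TPM and Glb1 with 37.0, 32.3 and 18.0 TPM. Some genes of these lists that did not pass in CPM lay more than 1 log2 unit below both MEF samples on the log2(TPM + 1) scale. These were Ctsa with 385, 413 and 107 TPM, Neu1 with 28.2, 33.4 and 5.78 TPM, Adamts10 with 19.1, 26.4 and 4.88 TPM, and Adamtsl4 with 20.3, 15.5 and 2.60 TPM. Thsd4, with 1.96, 2.64 and 0.48 TPM, lay at the limit.

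**Figure D5:**
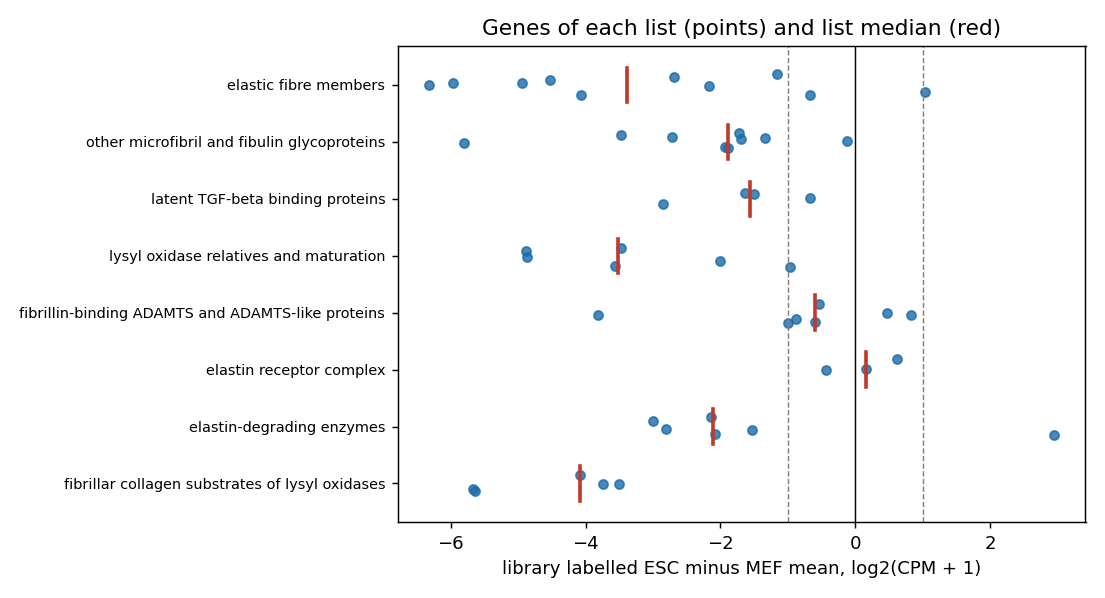
Difference of the library labelled ESC from the mean of the MEF samples on the log2(CPM + 1) scale (horizontal axis) for the genes of each list (vertical axis); each point is 1 gene, red bars are list medians and dashed lines mark 1 log2 unit. The median is −3.39 for the 10 elastic fibre genes, −4.08 for the fibrillar collagens and 0.16 for the elastin receptor complex.

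Markers of other cell types did not all move like the 10 genes. The summed CPM of 5 smooth muscle markers was 7440 for OG2 MEFs and 5783 for ICR MEFs, against 1099 for the library labelled ESC, and all 5 were lower by the fold rule, with none at 0. That of 4 chondrocyte markers was 169, 151 and 69.6, and that of 4 endothelial markers 11.5, 11.2 and 81.0. Col2a1 (150.5, 113.6 and 55.9 CPM) made up most of the chondrocyte sums and alone among the chondrocyte markers was called lower. Acan was at 1.24, 15.5 and 3.59 CPM, far apart between the MEF samples. The endothelial markers moved in opposite directions. Kdr, most of the MEF sums, fell from 10.8 and 10.4 CPM to 0. Pecam1 (64.5 CPM) and Tek (16.5 CPM) made up the sum in the library labelled ESC, where Cdh5 was also at 0. The part of these cell types in the results was not tested. Gene length also moved with the difference. Over 12697 genes with at least 10 counts in 1 library, Spearman's rho between the difference and length was −0.35 and that with GC content was 0.22, a description across genes that share these 3 libraries, and 7 of the 10 elastic fibre genes were longer than the median of 2609 bases.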

How the data were processed

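RNA-seq libraries of OG2 MEFs, ICR MEFs and R1 cells labelled ESC were analysed, 1 each. The libraries were made with a TruSeq kit. The study's methods name TRIMMOMATIC, bowtie2, Ensembl transcripts and RSEM, followed by a GC-content normalization, and the submitters' processing notes name Bowtie, RSEM and mm10, without versions. The deposited tables of the authors hold an expected count per gene, which is RSEM's estimated number of reads, with TPM and FPKM, which the authors' RSEM run scaled by length. FPKM was not used. The length and effective length columns, also deposited, were used for the order of genes.

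Each expected count was rounded to the nearest whole number. Genes with at least 1 count in 1 library were kept (17810 of 29267), and identifiers were matched to symbols for 28756. Counts were scaled by TMM in edgeR 4.0.16 under R 4.3.3 (factors 1.09, 1.13 and 0.812) and given as log2(CPM + 1). The threshold of 1 log2 unit follows the study. edgeR's quasi-likelihood test with its filter on low counts and Benjamini-Hochberg adjustment had 1 residual degree of freedom. On simulated counts of 12663 genes, 97.0% of 200 genes changed by 3 log2 units were recovered, and 2.02% of calls were on unchanged genes. The simulated libraries shared the spread of the MEF pair, which the real ESC side need not have. Only 200 genes were changed in them, while edgeR called 36.0% of genes lower and 31.4% higher in the real data. The simulated rates therefore need not hold for the real data. A floor of 3 counts was 0.583, 0.654 and 1.75 CPM before scaling. Intervals (95%) of ratios of counts are exact conditional ones.

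The 10 genes, the lists and the markers were chosen with earlier results of these data known. Named from each list were up to 3 genes highest in MEFs and any gene going the other way. Mfap4, Ltbp4, Bmp1, Atp7a, Adamtsl4, Thsd4 and Col3a1 were named after their values were seen. Alternatives were pseudocounts of 0.1 and 5, median-of-ratios and full-quantile scaling, TPM, GC-content and length correction over 20 bins, a minimum of 10 counts, each MEF sample left out, DESeq2 1.42.0 and no filter in edgeR. Python 3.11.15 with numpy 2.4.6, pandas 2.3.3, scipy 1.17.1 and matplotlib 3.10.9 was used for the rest.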

Additional observations from a re-analysis of the deposited data

How the results depend on the processing

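Over all alternatives the number of elastic fibre genes lower in the library labelled ESC was 7 to 9. Loxl2 no longer counted with median-of-ratios scaling and with GC-content and length correction, and Fbln1 was added with TPM and with GC-content correction. The number higher was 1 in place of 0 with median-of-ratios scaling, and 0 to 1 when a MEF sample was left out: without ICR MEFs, Efemp2 counted as higher. With TPM, 7692 of all genes were lower and 1624 higher, so that 17.4% of the calls were higher against 45.8% with CPM. The share was 50.3% with median-of-ratios scaling. Median-of-ratios and full-quantile scaling and a pseudocount of 5 moved the median of genes with at least 10 counts by 0.17, 0.20 and 0.13. Genes at least 1 log2 unit apart between OG2 and ICR MEFs numbered 3608 at a pseudocount of 0.1, 103 at 5 and 1107 with TPM, and 0 of the 10 genes was among them in each. DESeq2 called 2911 of 13681 genes lower and 3034 higher. With it, as with edgeR, 8 of the 10 genes were lower and 1 higher. Without a filter on low counts edgeR called 5166 of 17810 genes lower and 4222 higher. Of the 10 genes it called 9 lower, Fbln1 included (adjusted p 0.00765), and 1 higher. The adjusted p of Fbln1 was 0.132 to 0.391 in the other tests. The cause of these shifts was not tested. The order by level in MEFs was the same for all 10 genes with count over effective length. No paired analysis was possible because only 1 library stands against the MEFs and replicate numbers only name the MEF samples. Leaving a MEF sample out of edgeR was not done, as no residual degree of freedom remains. The depth of the library labelled ESC limits Eln most, and 39 to 60 counts stand behind Fbln5, Lox and Fbln1 there.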
